A study of Mus musculus with 8 samples.

Results

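Interferon beta and the 4 chains of the interferon receptors were followed in macrophages stimulated with lipopolysaccharide (LPS), from WT mice and from mice labelled as knockouts of the transcription factor ELF-1. The 5 genes were Ifnb1, Ifnar1, Ifnar2, Ifngr1 and Ifngr2, taken by gene name from the 54532 genes of the deposited table, and each name matched 1 entry. Ifnb1 was close to absent: 9 reads in all with LPS and 0 without. Of the receptor mRNAs 3 rose with LPS in WT cells, Ifnar2 by 4.32 times, Ifnar1 by 2.82 times and Ifngr2 by 2.40 times, and Ifngr1 fell to 0.755. These are ratios of FPKM + 1, where FPKM is the read density as deposited. Of all tested genes 37.7% rose and 33.9% fell with LPS in WT. The directions of the 4 receptor genes held but the sizes moved with the scaling of libraries. With LPS, Ifngr1 was 1.25 times higher on the same scale in the libraries labelled KO than in WT. As deposited it was the only one of the 4 receptor genes that passed the test between genotypes, where 28.9% of all tested genes passed.

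Interferon beta is a type I interferon, a secreted cytokine that macrophages make when they sense microbes. Its gene is switched on early and briefly by IRF and NF-kappaB factors. Type I interferons bind a receptor built from IFNAR1 and IFNAR2, which carry the kinases TYK2 and JAK1 and signal through STAT factors and IRF9. Interferon gamma, made mainly by T and NK cells, binds IFNGR1, and IFNGR2 is the accessory chain; they carry JAK1 and JAK2 and signal to the genes of macrophage activation.

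RNA was sequenced from bone marrow-derived macrophages of mice, which are macrophages grown in culture from marrow cells. The 8 libraries formed 4 groups of 2: WT without LPS, ELF1 KO without LPS, WT with LPS for 6 h and ELF1 KO with LPS for 6 h. The labels name the LPS libraries M1, which was read as the LPS arm because LPS is the one stimulus of the design. ELF-1 is a member of the ETS family, whose factors bind DNA at a GGAA core. The labels do not give the strain, age and sex of the mice, the LPS dose and the deleted part of Elf1. They also do not say whether the libraries of a group came from separate mice, so the p-values speak for the variation among these 8 libraries and no further.

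Reads rebuilt from the FPKM values (read density scaled for gene length and by 1 factor per library) gave totals of 15753259 to 17133646 in the LPS libraries and 17297543 to 18058974 in the others. The factor differed more between treatments than these totals did. FPKM times length per read was 65.0 to 77.5 in the LPS libraries and 44.9 to 46.0 in the others, so the deposited values are not scaled to total reads alone. Elf1 read 12.4 and 14.1 FPKM in WT without LPS and 16.9 and 16.1 in KO-labelled cells. With LPS it read 21.9 and 22.4 FPKM in WT and 16.5 and 17.9 in KO-labelled cells, with 1618 to 2515 rebuilt reads in each of the 8 libraries. A gene total cannot show a deletion of part of a gene, so it does not check the label, and the groups are called KO-labelled here. In KO-labelled cells Elf1 differed by 0.30 ± 0.07 without LPS (limma, adjusted p = 0.0699) and passed, at 0.36 to 0.39, in TPM and with total-read or quantile scaling. With LPS Elf1 was lower by -0.35 ± 0.07 (adjusted p = 0.0133), a call that none of these 3 scalings gave (-0.20 to -0.14). All 8 macrophage markers were present, at a summed 7664 to 10508 FPKM per library. The summed markers of T and NK cells, the usual source of interferon gamma, reached 0.207 FPKM at most, and those of B cells 0.300. The 7 markers of plasmacytoid dendritic cells, which make much type I interferon, summed to 70.1 to 109 FPKM without LPS and 499 to 741 with LPS. Most of this was Bst2 (65.6 to 733 FPKM), which is also an interferon target; Tcf4 ranged from 2.99 to 6.86 and Cox6a2 reached 1.92, Ccr9 0.386, Siglech 0.173, Ly6d 0.123 and Klk1 0.0839. Of the 3 markers of this list that could be tested, 3 rose with LPS in WT, where 37.7% of all tested genes did. With LPS 2 of the 3 were lower in KO-labelled cells, where 18.1% of all tested genes were. The part of these markers in the results was not tested. The summed markers of fibroblasts and stroma reached 7.81 FPKM in WT and 2.19 in KO-labelled libraries, most of it Col1a1, and their part in the results was not tested. In bulk RNA, fewer cells that express a gene and less RNA per cell cannot be told apart.

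The stretches from 250 to 51 bases before the RefSeq starts (build GRCm38.p6) are printed for 4 of the genes, to show how the ligand's upstream sequence differs from those of the receptors. Capitals mark matches to the motifs searched on both strands: an ETS-type motif (CCGGAA), an IRF-type motif (AANNGAAA), the GAS element of STAT factors (TTCNNNGAA), a TATA box (TATAAA) and the kappaB motif.
Ifnb1, chr4:88522845-88523044, minus strand: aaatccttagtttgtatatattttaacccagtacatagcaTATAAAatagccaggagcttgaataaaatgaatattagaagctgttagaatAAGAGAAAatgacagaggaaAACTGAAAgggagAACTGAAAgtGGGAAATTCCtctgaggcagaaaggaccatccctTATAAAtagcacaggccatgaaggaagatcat
Ifnar1, chr16:91484965-91485164, plus strand: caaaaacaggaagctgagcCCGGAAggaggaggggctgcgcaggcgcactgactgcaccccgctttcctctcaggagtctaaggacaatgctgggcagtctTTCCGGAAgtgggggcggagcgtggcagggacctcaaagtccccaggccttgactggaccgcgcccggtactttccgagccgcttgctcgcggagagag
Ifngr1, chr10:19591699-19591898, plus strand: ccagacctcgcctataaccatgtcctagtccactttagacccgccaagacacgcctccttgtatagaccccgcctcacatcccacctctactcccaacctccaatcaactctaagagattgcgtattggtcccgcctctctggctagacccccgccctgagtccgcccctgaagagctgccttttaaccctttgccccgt
Ifngr2, chr16:91546809-91547008, plus strand: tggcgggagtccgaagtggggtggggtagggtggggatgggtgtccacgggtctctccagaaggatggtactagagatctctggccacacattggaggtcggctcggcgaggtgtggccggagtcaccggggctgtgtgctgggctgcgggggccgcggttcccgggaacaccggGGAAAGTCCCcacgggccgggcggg

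The Ifnb1 stretch held 3 IRF-type matches, 1 kappaB match and 2 TATA matches, with 35.5% G and C. Among 32851 RefSeq promoter stretches of the same length, 17.8% held at least 1 IRF-type match and 3.08% at least 2, while 5.71% held the kappaB motif and 9.14% the TATA motif. Ifnar1 held 3 ETS-type matches, of which 2 lie on opposite strands and overlap in TTCCGGAA. At least 1 ETS-type match stood in 8.03% of the stretches and at least 2 in 1.10%. The Ifnar2 stretch, not printed, held 1 GAS match (TTCCTGGAA), a motif found in 5.76% of the stretches. Ifngr2 held 1 kappaB match on the minus strand, with 69.5% G and C. Ifngr1 held none of these letters in this window. The window ends 51 bases before the start, so motifs nearer to the start, a TATA box among them, were not searched. The TATA matches of Ifnb1 begin at -210 and -82. A match is a string of letters and not a measured binding site.

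Ifnb1 lies on chromosome 4 (88522025 to 88522774, minus strand, mm10) as a single transcript of 750 bases. The rebuilt reads numbered 0 and 0 in WT and 0 and 0 in KO-labelled cells without LPS. With LPS there were 3 and 3 reads in WT and 3 and 0 in KO-labelled cells. These correspond to 0.293 and 0.310 FPKM in WT with LPS and to 0.274 and 0 in KO-labelled cells with LPS. Reads were thus present in 3 of the 4 libraries with LPS and in 0 of the 4 without.

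The exact 95% Poisson interval of 3 reads is 0.619 to 8.77, and that of the 9 reads summed over the LPS libraries is 4.12 to 17.1; both cover counting error only. The two-sided interval of 0 reads ends at 3.69; as the limit that a count of 0 allows, 3 reads were used throughout, which is 0.179 to 0.184 FPKM in the libraries without LPS and 0.260 FPKM in the KO-labelled LPS library at 0. Each LPS library with reads therefore stood at the limit that a count of 0 allows, and no fold is given. An exact two-sided permutation test of Ifnb1 CPM in 4 libraries with LPS against 4 without gave p = 0.143, where the smallest possible is 0.0286. Ifnb1 was below the minimum of 1 FPKM in 2 libraries that the main test requires. It was instead tested with limma-voom on the rebuilt reads of 25719 genes. There its LPS change in WT passed with an adjusted p of 0.00639, but the call was lost without any single WT library, with adjusted p of 0.0639 to 0.0688. In KO-labelled cells the adjusted p for LPS was 0.106, and for KO against WT with LPS it was 0.388. The first call changed only without KO-labelled M1 replicate 2 (0 reads), and the second only without KO-labelled M1 replicate 1 (3 reads). Single libraries with 3 or 0 reads thus set these calls.

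The rest of the type I interferon family was at or near 0 as well. Of 17 other family members in the table, 16 had 0 reads in all 8 libraries, all of the listed Ifna genes among them. The exception was Ifnk, interferon kappa, with 37 reads in all: 6 and 2 in WT and 3 and 3 in KO-labelled cells without LPS, and 9 and 2 in WT and 2 and 10 in KO-labelled cells with LPS. Its libraries overlapped between all groups. Ifng, interferon gamma, had 2 reads in 1 WT library with LPS and 0 elsewhere, and the type III genes Ifnl2 and Ifnl3 had 0 in all 8.

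All 4 receptor genes were well expressed in every library, with 1290 to 7385 rebuilt reads each. Ifnar1, Ifnar2 and Ifngr2 lie on chromosome 16 and Ifngr1 on chromosome 10. Positions and summed exon lengths (5940 bases for Ifnar1, 3329 for Ifnar2, 2847 for Ifngr1 and 3767 for Ifngr2) were the same in GENCODE M21. Ifnar2 overlaps Gm21970, which reached 0.166 FPKM at most. Without LPS the order of levels per length in WT was Ifngr1, Ifngr2, Ifnar1 and Ifnar2, with means of 45.7, 39.2, 26.1 and 25.6 FPKM. The libraries of Ifnar1 and Ifnar2 overlapped there, and the other neighbours in the order did not. With LPS the order became Ifnar2, Ifngr2, Ifnar1 and Ifngr1 in both genotypes, and no neighbours in the order overlapped.

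Ifnar1, the type I chain that carries TYK2, read 25.6 and 26.6 FPKM in WT and 28.4 and 28.1 in KO-labelled cells without LPS. With LPS it read 75.7 and 75.1 FPKM in WT and 81.4 and 80.8 in KO-labelled cells. Every LPS library was far above every library without LPS. Within each treatment both KO-labelled libraries lay above both WT libraries. For genotype groups of this size the smallest possible exact permutation p is 0.333. Separation of the genotypes, here and for the genes below, therefore only describes these libraries. The share of all genes whose libraries separate as fully, by genotype or by LPS, was not counted. Separation therefore does not set a receptor gene apart from other genes.

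Ifnar2, the type I chain with the long signalling tail that carries JAK1, read 24.6 and 26.5 FPKM in WT and 25.4 and 25.3 in KO-labelled cells without LPS. With LPS it read 113 and 115 FPKM in WT and 104.6 and 100.04 in KO-labelled cells. The genotypes overlapped without LPS, and with LPS both KO-labelled libraries lay below both WT libraries.

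Ifngr1, the chain that binds interferon gamma, read 45.1 and 46.2 FPKM in WT and 48.0 and 48.4 in KO-labelled cells without LPS. With LPS it read 33.2 and 35.3 FPKM in WT and 44.1 and 42.1 in KO-labelled cells. All LPS libraries were below all libraries without LPS, the WT ones by the wider gap, and the genotypes did not overlap in either treatment.

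Ifngr2, the accessory chain of the gamma receptor that carries JAK2, read 38.0 and 40.4 FPKM in WT and 39.1 and 38.6 in KO-labelled cells without LPS. With LPS it read 93.5 and 97.7 FPKM in WT and 87.3 and 84.7 in KO-labelled cells. As for Ifnar2, the genotypes overlapped without LPS and the KO-labelled libraries were the lower ones with LPS.

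**Figure D1:**
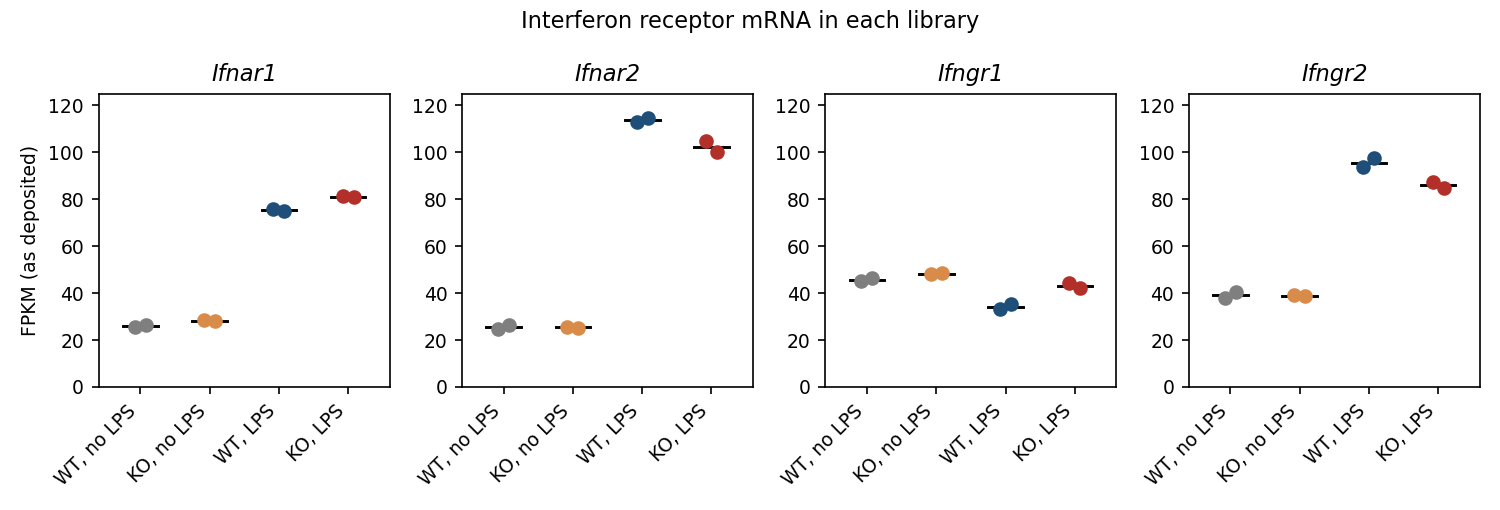
FPKM of the 4 receptor genes in each library (points, 2 per group) with the group mean (line), by genotype label and LPS; the vertical axis starts at 0 and is shared. Ifnar1, Ifnar2 and Ifngr2 stand at 75.1 to 115 FPKM with LPS against 24.6 to 40.4 without, and Ifngr1 is lower with LPS, least so in KO-labelled cells.

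The first comparison asked how LPS changed the genes in WT cells. All 4 receptor genes passed (limma, adjusted p under 0.05), 3 higher and 1 lower. Of all 11887 genes tested 71.5% passed, 37.7% higher and 33.9% lower, so passing as such does not set the receptors apart. On the log2(FPKM + 1) scale, with n = 2 per group, Ifnar2 rose by 2.11 ± 0.05 (SE; adjusted p = 4.67e-08). Ifnar1 rose by 1.50 ± 0.04 (8.25e-08) and Ifngr2 by 1.27 ± 0.05 (4.96e-07). Ifngr1 fell by 0.41 ± 0.05 (2.27e-04). These 4 calls and their directions held under all 22 alternatives.

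The size of the LPS change depended on how libraries were scaled. The median change of all tested genes was 0.04 as deposited, but -0.51 in TPM (FPKM rescaled to a common sum). Scaling to the total reads gave -0.48, and quantile normalization gave -0.13; between genotypes with LPS the same medians were -0.02, 0.15, 0.14 and 0.02. Under TPM the changes were 0.92 for Ifnar1, 1.54 for Ifnar2, 0.68 for Ifngr2 and -1.01 for Ifngr1. Under quantile normalization they were 0.74, 1.31, 0.41 and -1.11. Median-of-ratios scaling stayed close to the deposited values, with a median of 0.04 for all genes. It gave 1.50 for Ifnar1, 2.12 for Ifnar2, 1.27 for Ifngr2 and -0.40 for Ifngr1. Less the median of all genes, Ifnar2 changed by 2.07 as deposited, 2.05 under TPM and 1.43 under quantile normalization, and Ifngr1 by -0.44, -0.50 and -0.99.

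In KO-labelled cells all 4 receptor genes passed for LPS again, where 65.9% of all genes did, 34.7% higher and 31.2% lower. Ifnar2 rose by 1.97 ± 0.05, Ifnar1 by 1.49 ± 0.04 and Ifngr2 by 1.13 ± 0.05, with adjusted p of 8.23e-08, 1.05e-07 and 1.15e-06. Ifngr1 fell by 0.16 ± 0.05, with an adjusted p of 0.0234. That Ifngr1 call was lost without KO-labelled con replicate 1 (adjusted p = 0.0812) or 2 (0.102), without M1 replicate 2 (0.109) and in limma without a trend (0.0532).

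The chains of 1 receptor were also compared within each library, where 1 scaling factor per library cancels out (quantile normalization is not such a factor). This comparison was added after the values were seen. The FPKM ratio of Ifnar1 to Ifnar2 was 1.04 and 1.00 in WT and 1.12 and 1.11 in KO-labelled cells without LPS, and 0.670 and 0.655 in WT and 0.779 and 0.808 in KO-labelled cells with LPS. The ratio of Ifngr1 to Ifngr2 was 1.19 and 1.15 in WT and 1.23 and 1.25 in KO-labelled cells without LPS. With LPS it was 0.355 and 0.362 in WT and 0.505 and 0.497 in KO-labelled cells. Every LPS library was below every library without LPS in both ratios, so within each receptor the mRNAs of the chains did not keep their proportion. Receptor protein was not measured.

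On the log2 scale the LPS libraries were lower by a mean difference of -0.56 for Ifnar1 to Ifnar2 and -1.50 for Ifngr1 to Ifngr2. For each ratio the exact two-sided permutation test of 4 against 4 libraries gave p = 0.0286, the smallest it can give, and 0.0286 adjusted over both ratios. The test pooled the genotypes, and the ratios were chosen after the values were seen. Ifngr1 was lower and Ifngr2 higher in every LPS library, so the separation of their ratio was fixed beforehand. Neither p is therefore independent support. The difference was -0.62 in WT and -0.49 in KO-labelled cells for the type I receptor, and -1.70 and -1.31 for the gamma receptor. Between genotypes with LPS, the KO-labelled ratio was higher by 0.26 for the type I and 0.48 for the gamma receptor, against 0.13 and 0.09 without LPS. With 2 against 2 libraries the smallest possible exact permutation p is 0.333, so these genotype differences are given as values.

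**Figure D2:**
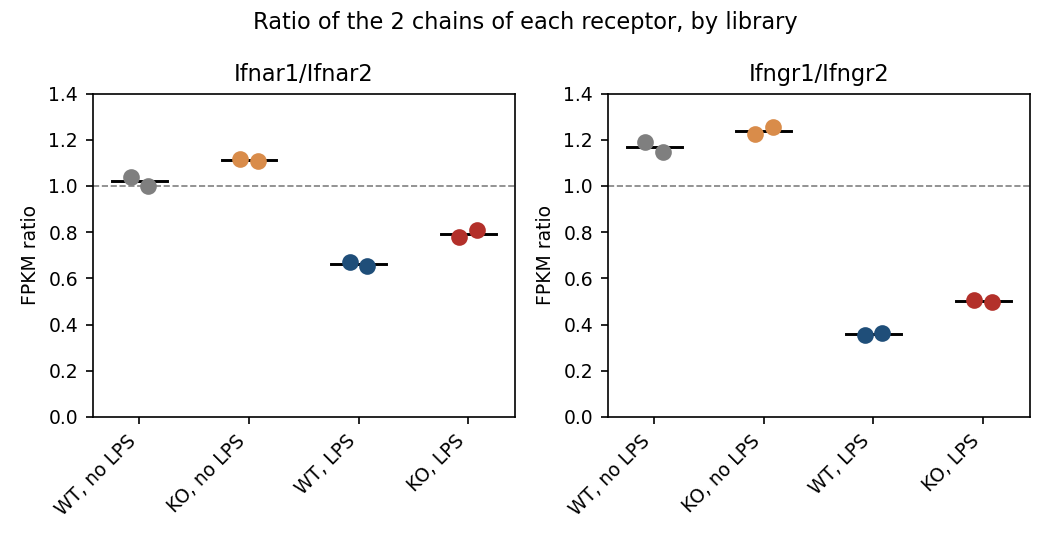
FPKM ratio of Ifnar1 to Ifnar2 (left) and of Ifngr1 to Ifngr2 (right) in each library (points) with the group mean (line); the dashed line marks a ratio of 1. The gamma receptor ratio stands at 1.15 to 1.25 without LPS, at 0.355 and 0.362 in WT with LPS and at 0.497 and 0.505 in KO-labelled cells with LPS.

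The effect of the genotype label was compared next. Without LPS 0 of the 4 receptor genes passed in limma, against 5.64% of all genes, 1.72% higher and 3.92% lower in KO-labelled cells. None of the 4 passed in any of the 22 alternatives either. Ifnar1 differed by 0.11 ± 0.04 (adjusted p = 0.161) and Ifngr1 by 0.08 ± 0.05 (0.419). Ifnar2 (-0.01, adjusted p = 0.937) and Ifngr2 (-0.01, 0.943) were slightly negative as deposited and slightly positive, at 0.03 to 0.07, under TPM, total-read and quantile scaling.

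With LPS 28.9% of all genes passed between genotypes, 10.8% higher and 18.1% lower in KO-labelled cells. Of the 4 receptor genes 1 passed: Ifngr1 was higher in KO-labelled cells by 0.32 ± 0.05 (adjusted p = 0.00323), with group means of 43.1 ± 1.43 FPKM against 34.3 ± 1.51 (SD, n = 2). It passed in the same direction under all 22 alternatives, at 0.48 to 0.53 under TPM, total-read and quantile scaling.

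Ifnar1 differed by 0.10 ± 0.04 with LPS and did not pass as deposited (adjusted p = 0.0918), but it passed at 0.31 to 0.34 in TPM and with total-read or quantile scaling. Ifnar2 and Ifngr2 each differed by -0.15 ± 0.05 (adjusted p = 0.0582 and 0.0547) and changed sign, at 0.05 to 0.12 and 0.05 to 0.10, under the same 3 scalings. Under median-of-ratios scaling they stayed at -0.149 and -0.147. As deposited each of them passed with a minimum of 5 FPKM, in both voom fits and without either WT con library. Less the median of all genes, Ifnar2 stood at -0.13 as deposited, -0.096 under TPM and 0.10 under quantile normalization. The order of the 4 genes by genotype difference was Ifngr1 first, then Ifnar1, then Ifnar2 and Ifngr2. It was the same as deposited and under the 4 other scalings apart from the last pair.

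Whether the LPS response itself differed between genotypes was tested as an interaction, the LPS change in KO-labelled cells less that in WT. Of the 4 receptor genes 0 passed in limma at an adjusted p under 0.05, against 16.0% of all genes, 5.64% higher and 10.3% lower. Ifngr1 stood at 0.25 ± 0.07 (adjusted p = 0.0532) and passed under 5 of the alternatives, with adjusted p of 0.0126 to 0.0479. Ifnar2 and Ifngr2 stood at -0.14 ± 0.07 each (adjusted p = 0.225 and 0.214), and Ifnar1 at -0.01 (0.951). The signs of Ifnar1, Ifnar2 and Ifngr2 changed under total-read and quantile scaling.

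**Figure D3:**
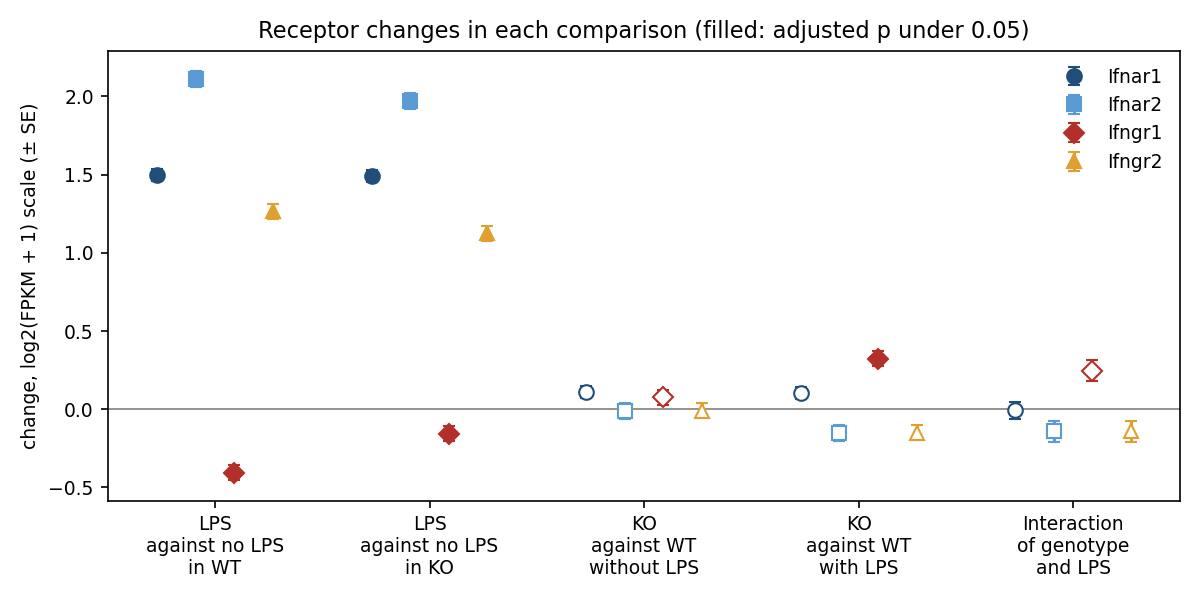
Change of each receptor gene on the log2(FPKM + 1) scale in the 5 comparisons (symbols, with SE; filled where the adjusted p was under 0.05). LPS changes run from -0.41 for Ifngr1 to 2.11 for Ifnar2 in WT, and with LPS the genotype difference of Ifngr1 stands at 0.32, the one filled symbol between genotypes.

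The genes whose pattern over the 8 libraries was closest to each receptor were looked up among 5830 tested genes with a mean of at least 5 FPKM, by the root mean square difference of centred log2 values. The libraries share their 4 groups, so closeness describes the pattern and carries no test. For Ifnar1 the closest were Plekhm3 (0.0467), Heatr6 (0.0477) and Rhoq (0.0479). For Ifnar2 they were Tnfrsf14 (0.0348), a receptor of the TNF family, Cxcl16 (0.0564), a chemokine, and the phosphatase Ptpn12 (0.0624). Ifngr2 was closest to Wtap (0.0366), a subunit of the RNA methylation complex, Rnf145 (0.0379) and Sh3bp5 (0.0393). For Ifngr1 they were the splicing factor Snrpa (0.0490), the DNA replication factor Rfc1 (0.0502) and C1qbp (0.0546). Snrpa shows the Ifngr1 pattern at a lower level, with 8.45 and 8.62 FPKM in WT without LPS, 6.72 and 6.46 in WT with LPS, and 8.54 and 7.72 in KO-labelled cells with LPS.

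Ifnar2, Ifnar1 and Ifngr2 lie within 192841 bases of chromosome 16 (91372783 to 91565623, mm10), on the same strand, with Il10rb between Ifnar2 and Ifnar1. Il10rb encodes a shared chain of the receptors for interleukin 10 and the type III interferons. Within 200000 bases of the 3 genes, 9 other genes could be tested. With LPS in WT 4 of the 9 rose, 3 fell and 2 did not pass, where 37.7% of all genes rose and 33.9% fell. None of the 9 rose by as much as any of the 3 receptor genes as deposited.

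Il10rb read 37.4 and 38.6 FPKM in WT without LPS, 59.2 and 61.7 in WT with LPS and 45.8 and 45.1 in KO-labelled cells with LPS. It rose by 0.66 ± 0.04 with LPS in WT as deposited, but stood at 0.07 under TPM and 0.04 under total-read scaling, neither passing, and at -0.15 under quantile normalization. Between genotypes with LPS Il10rb was lower by -0.40 ± 0.04 (adjusted p = 8.72e-04), and negative under all 3 scalings, at -0.21 under TPM. Tmem50b, on the opposite strand beyond Ifngr2, was lower by -0.45 ± 0.06 (0.00230), and its LPS change differed between genotypes by -0.53 ± 0.09 (interaction, adjusted p = 0.00950). The 3 receptor genes beside them did not pass in either comparison. Of the 9 neighbours 2 were lower between genotypes with LPS, Il10rb and Tmem50b, and 2 were higher, where 18.1% and 10.8% of all genes were. In the interaction 2 of the 9 were lower and 1 higher, against 10.3% and 5.64% of all genes. No gene within 200000 bases of Ifngr1 could be tested, and near Ifnb1 the 3 that could were Focad, Hacd4 and Klhl9. Of these 2 fell and 0 rose with LPS in WT, where 33.9% and 37.7% of all genes did.

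**Figure D4:**
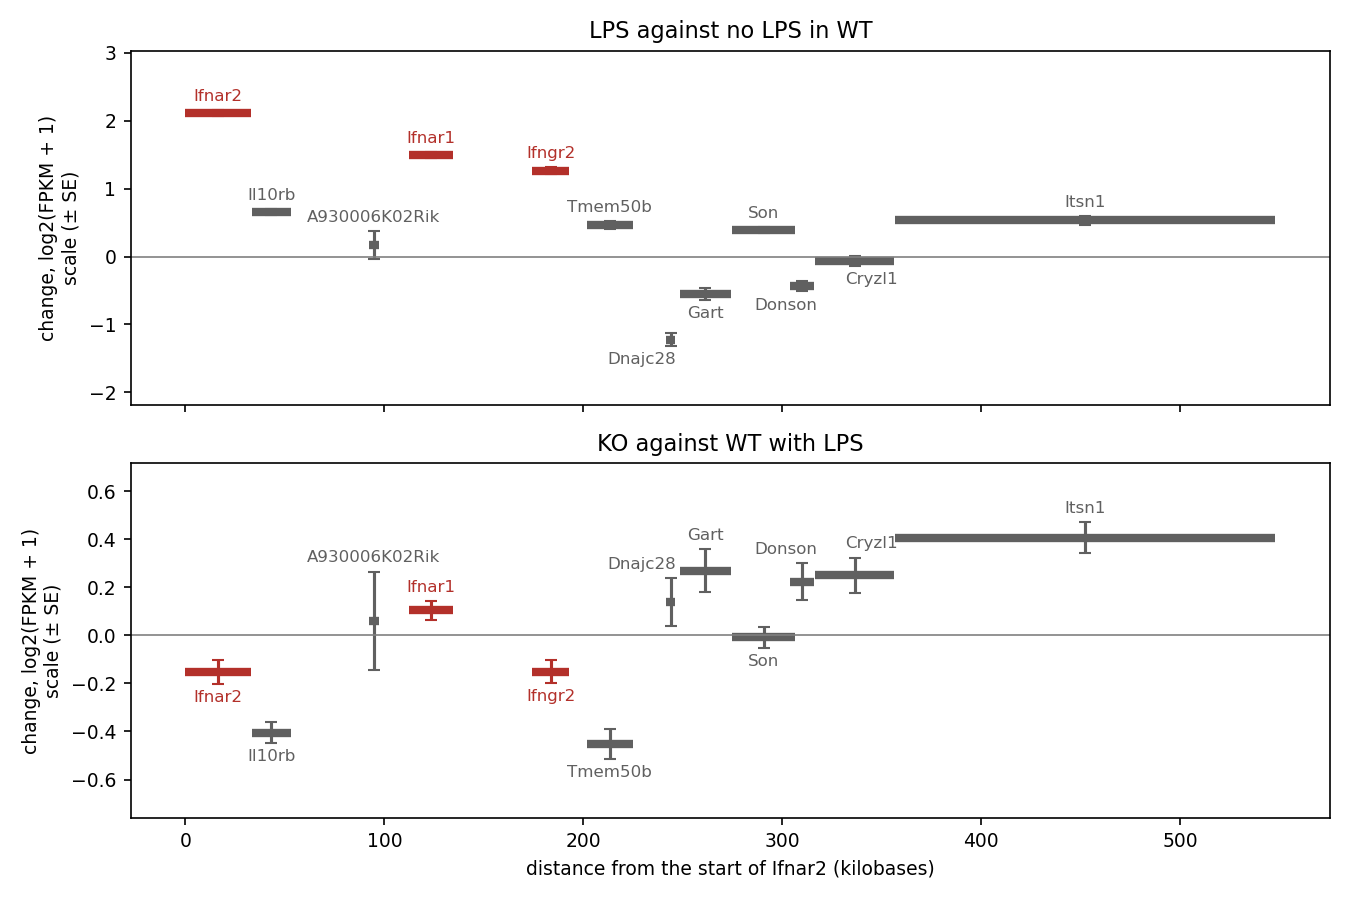
Log2 change (with SE) of each tested gene within 200 kilobases of Ifnar2, Ifnar1 or Ifngr2, drawn as a bar over the gene's extent, for LPS in WT (top) and KO against WT with LPS (bottom); the horizontal axis is the distance from the start of Ifnar2, and receptor genes are red. As deposited the 3 receptor genes stand at 1.27 to 2.11 for LPS, above Il10rb at 0.66. Between genotypes Il10rb and Tmem50b are lowest at -0.40 and -0.45, and 2 of the 9 other tested genes passed as higher.

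The genes that act just below the receptors were read from lists of known function. For every list that follows, 37.7% of all genes rose and 33.9% fell with LPS in WT. In KO-labelled cells 18.1% of all genes were lower and 10.8% higher with LPS, and 3.92% lower and 1.72% higher without. The kinases and STATs included 10 tested genes, of which 8 rose with LPS in WT, 1 fell and 1 did not pass, with a median change of 2.26 against 0.04 for all genes. Jak2, the kinase of IFNGR2, rose by 4.84, from 10.4 ± 0.598 to 324 ± 2.17 FPKM. Stat2 rose by 4.71, while Stat6, the STAT of interleukin 4, was the 1 that fell, by 0.52. Between genotypes with LPS 9 of the 10 were lower in KO-labelled cells and 0 higher, with a median of -0.44 against -0.02 for all genes. Stat2 (-0.83), Stat3 (-0.78) and Tyk2 (-0.71) differed most. With TPM, total-read or quantile scaling 5 of the 10 were lower and at most 1 higher. Without LPS 0 of the 10 passed.

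Of 14 tested inhibitors of receptor signalling, 10 rose with LPS in WT and 2 fell, with a median of 1.25 against 0.04 for all genes. Isg15, which encodes a ubiquitin-like modifier, rose by 8.47. Socs3, an inhibitor of cytokine receptor kinases, rose by 7.81, and Usp18, which binds IFNAR2 and removes ISG15, by 6.75. Socs1 averaged 0.197 FPKM in WT and 0.186 in KO-labelled cells without LPS. It met the minimum only through the LPS libraries, so its rise was built into the filter. With LPS 7 of the 14 were lower and 1 higher in KO-labelled cells, where 18.1% and 10.8% of all genes were, Usp18 by -1.16 (adjusted p = 0.00115), Isg15 by -0.76 and Socs1 by -0.54. Under TPM and quantile scaling 2 were lower and 2 higher, and without any single LPS library 3 or 4 were lower and 0 higher.

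Genes for the turnover of IFNAR1 and its traffic included 11 tested genes, of which 6 rose and 2 fell with LPS in WT, where 37.7% and 33.9% of all genes did. Rnf114, a ubiquitin ligase, rose by 2.85, and Csnk1a1, a kinase that marks IFNAR1 for degradation, by 1.19. Their median was 0.35 as deposited and turned negative under TPM (-0.24), total-read scaling (-0.26) and quantile normalization (-0.25), where 3 rose and 7 fell. Between genotypes with LPS 4 of the 11 were lower and 0 higher, against 18.1% and 10.8% of all genes, Rnf114 by -0.50, with 2 lower and up to 2 higher under those scalings.

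Next, 3 lists covered the routes that lead to Ifnb1. Of 25 tested genes of the TLR4 route, 19 rose and 3 fell with LPS in WT, with a median of 0.91. Under TPM, total-read and quantile scaling 6 to 9 fell, while under median-of-ratios scaling the median was 0.92. Irf7, a transcription factor that drives type I interferon genes and stands among their targets too, rose from 12.3 ± 0.275 to 425 FPKM, and Irf1 by 4.23. Irf3, which acts first on Ifnb1 in response to LPS and is controlled by phosphorylation, stood at 0.04 ± 0.10 and did not pass. Tlr4 itself fell by 0.73. With LPS 13 of the 25 were lower and 1 higher in KO-labelled cells, against 18.1% and 10.8% of all genes, with a median of -0.24 against -0.02. Irf7 was lower by -0.81, and Tlr4 was the 1 that was higher (0.41). With TPM, total-read or quantile scaling 5 of the 25 were lower and 2 or 3 higher.

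Without LPS Irf7 was already lower in KO-labelled cells, by -1.50 ± 0.05 (adjusted p = 5.05e-05), at 3.70 ± 0.152 against 12.3 ± 0.275 FPKM. It was 1 of 4 genes of the TLR4 route that were lower there, beside Irf5 (-0.35), Tbkbp1 (-0.38) and Ikbke (-0.25). The route had 25 tested genes, and 3.92% of all genes were lower there. Adjusted p for Ikbke was 0.0495 and for Tbkbp1 0.0454. The count of 4 went down to 1 without either KO-labelled con library, and to 2 without WT con replicate 1 or any single LPS library. It was also 2 in TPM and with total-read scaling, no filter, no trend or the replicate block, and 1 in a model of the libraries without LPS alone. In 9 of the alternatives 1 or 2 genes of this route were higher in KO-labelled cells, so this count is not firm.

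Of 11 tested sensors and adaptors of cytosolic nucleic acids, 8 rose and 1 fell with LPS in WT, with a median of 2.28; 2 fell without WT M1 replicate 2 and 3 under the other scalings. Zbp1 rose by 5.96, Ifi204 by 5.21 and Ifih1, the sensor of long double-stranded RNA, by 5.19. With LPS 9 of the 11 were lower and 0 higher in KO-labelled cells, with a median of -0.68 against -0.02 for all genes. Tmem173, which encodes STING, differed by -1.11 and Ifih1 by -1.02, at 78.3 ± 5.13 against 160.0 ± 4.82 FPKM. The median stayed negative under TPM (-0.48) and quantile scaling (-0.37).

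Of 15 tested brakes on Ifnb1 induction, 10 rose and 4 fell with LPS in WT, where 37.7% and 33.9% of all genes did. Their median was 0.81 against 0.04 for all genes. The cytokine Il10 rose by 5.93 and Tnfaip3, which ends NF-kappaB signalling, by 5.30. Il10 averaged 0.175 FPKM in WT and 0.172 in KO-labelled cells without LPS. It met the minimum only through the LPS libraries, so its rise was built into the filter. With LPS 10 of the 15 were lower and 0 higher in KO-labelled cells, where 18.1% and 10.8% of all genes were. Atf3, a repressor of Ifnb1, was at 197 ± 7.15 FPKM in WT and 98.9 ± 1.04 in KO-labelled cells, a difference of -0.99. Il10 differed by -0.94. With TPM or total-read scaling 4 of the 15 were lower, and with quantile normalization 5.

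The lists of receptor targets had the highest medians of the 9 lists for LPS in WT. All 20 targets mainly of type I interferon rose with LPS in WT, with a median of 6.23, and all 20 rose in KO-labelled cells, with a median of 5.68. Rsad2, which encodes viperin, rose by 9.68 in WT, from 2.16 ± 0.184 to 2587 ± 207 FPKM. With LPS all 20 were lower in KO-labelled cells than in WT, with a median of -0.79 and 18.1% of all genes lower; 17 to 20 were lower over the alternatives. Rsad2 differed by -2.10, at 603 ± 69.1 FPKM, Cmpk2 by -2.02 and Ifit2 by -1.63. Without LPS 9 of the 20 were lower and 0 higher, with Irf7 (-1.50), Oas3 (-0.92) and Oasl2 (-0.85) furthest; 5 were lower with a pseudocount of 5 and 3 in a model of the libraries without LPS alone, and without WT con replicate 2 there was 1 that was higher. These targets stood high in the same LPS libraries in which Ifnb1 had 3 or 0 reads.

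Of 19 tested targets mainly of interferon gamma, all rose with LPS in WT, with a median of 4.25, in the near absence of Ifng reads. With TPM, total-read or quantile scaling 2 or 3 of them fell instead. Gbp5 rose by 8.47 and Gbp2 by 8.05. Both encode guanylate-binding proteins of host defence, which type I interferon induces as well. Gbp5, Gbp4, Iigp1 and Cxcl9 averaged between 0 (Cxcl9 in WT) and 0.146 FPKM (Gbp5 in KO-labelled cells) without LPS. They met the minimum only through the LPS libraries, so their rise was built into the filter. With LPS 13 of the 19 were lower and 5 higher in KO-labelled cells, where 18.1% and 10.8% of all genes were. Gbp4 differed by -2.20, Iigp1 by -1.99 and the chemokine Cxcl9 by -1.59. The 5 that were higher, H2-Aa (0.71), H2-Ab1 (0.63), H2-Eb1 (0.60), Cd74 (0.50) and H2-DMa (0.40), all serve antigen presentation by MHC class II, and they are named here after their values were seen. The same 5 genes were higher in KO-labelled cells without LPS as well, by 0.36 to 0.47, where Ifngr1 (0.08) did not pass; without LPS their count fell to 0 to 3 when 1 con library was left out.

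**Figure D5:**
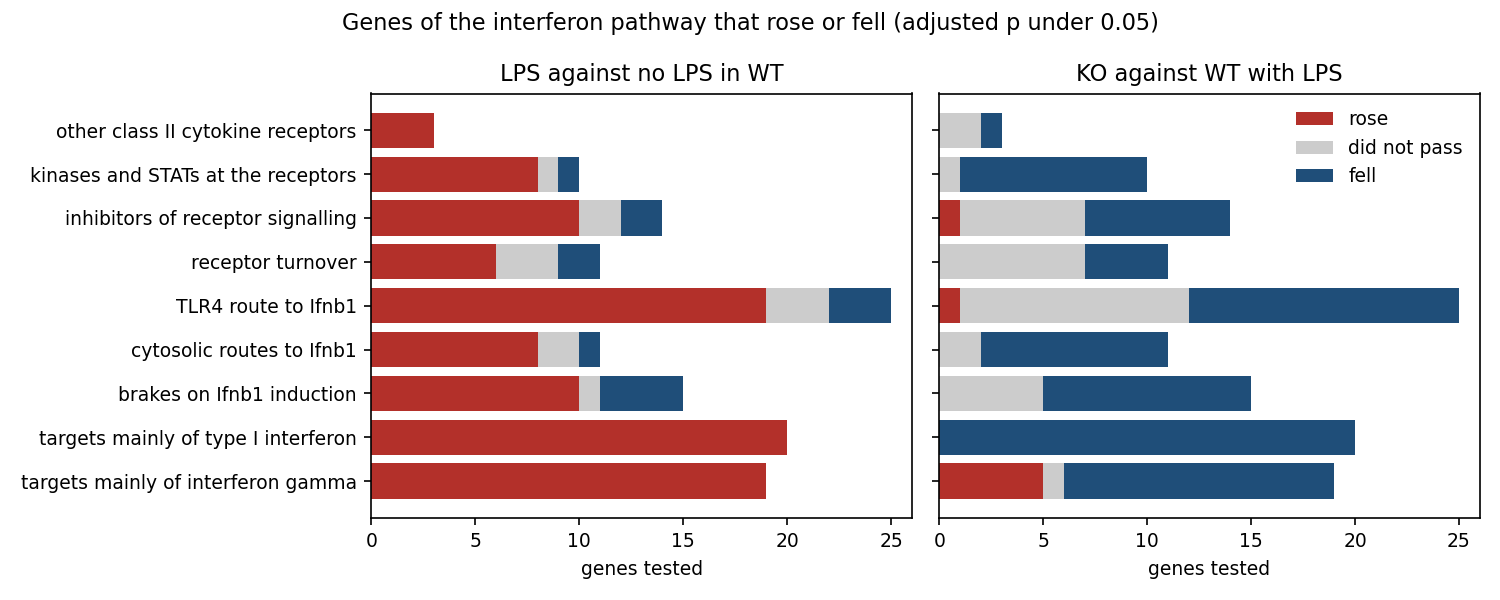
Number of tested genes in 9 lists of the interferon pathway that rose (red), fell (blue) or did not pass (grey), for LPS in WT (left) and KO against WT with LPS (right); a bar's length is the number tested, 3 to 25. All 20 type I targets and all 19 gamma targets rose with LPS in WT, and with LPS 20 and 13 of them were lower in KO-labelled cells. Genes such as Gbp5 and Cxcl9 met the minimum only through the LPS libraries, so their rise was built into the filter.

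Of 8 other class II cytokine receptors 3 could be tested, Il20rb (0.86), Il10rb (0.66) and Il10ra (0.30), and all 3 rose with LPS in WT as deposited. Under total-read and quantile scaling 1 of the 3 rose, and 1 or 2 fell. In KO-labelled cells all 3 rose as well as deposited, at 0.91, 0.41 and 0.46. There 1 of the 3 rose under TPM, total-read and quantile scaling, and 1 fell under quantile scaling. Ifnlr1, the specific chain of the type III receptor, was among the 5 listed genes below the minimum level.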

How the data were processed

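The authors deposited 1 table of FPKM per gene with gene positions and gene length in bases, for 8 libraries. The submitters' processing notes name mm10 and DESeq2, without saying how either was used. Aligner, read counter and annotation: not given in the sources used here. Dividing FPKM times length by 1 constant per library returned whole reads (within 0.001 for 100% of values). The limit set by a count of 0 was taken as 3 reads, between 0.166 and 0.190 CPM; intervals and limits cover counting error only.

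The main test was limma-trend (limma 3.58.1, R 4.3.3; two-sided) on log2(FPKM + 1). Its single model held all 4 groups and left 4 residual and 2.74 prior degrees of freedom. It covered the 11887 genes that reached 1 FPKM in 2 or more libraries, and p-values were adjusted by Benjamini-Hochberg per comparison at 0.05. A pseudocount of 1 understates the change of low genes. Replicates differed by more than counting noise. The procedure was tested on simulated data.

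The members and gene lists were chosen with earlier results of these data known, so no list is independent support. The rule names, from each list, the 3 largest changes that passed, and the 3 genes closest in pattern to each receptor. Irf3, Tlr4, Stat6 and Ikbke were named outside it, after their values were seen. Cgas and Wash1 were not matched by name and not analysed. One gene that the rule names is not reported here. Promoter sequences are RefSeq's. Alternatives were pseudocounts of 0.1 and 5, a minimum of 5 FPKM or none, 4 other scalings, limma without trend or with robust moderation, 2 voom fits, a replicate block, only the libraries compared, and leaving out each library. The chain ratios, their permutation test and their leave-one-out values were added after seeing the data.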

Additional observations from a re-analysis of the deposited data

How the results depend on the processing

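Of 436 values of the receptor genes under alternatives, 388 kept direction and side of the threshold, 4 lost the call, 20 gained it and 24 changed sign. With LPS, the count of receptor genes that passed between genotypes went from 1 to 2 with a pseudocount of 5, in TPM and with total-read or quantile scaling, to 3 with a minimum of 5 FPKM and in voom with at least 10 reads, to 4 in voom with all genes, and ranged from 1 to 3 when 1 library was left out (3 without either WT con library). For the interaction it went from 0 to 1 with a minimum of 5 FPKM, in TPM, with total-read or quantile scaling and in voom with at least 10 reads. The 9 Ifnb1 reads became 6 to 9.

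Sign changes were all in values that had not passed. Between genotypes without LPS, Ifnar2 moved from -0.011 to 0.065 (TPM), 0.050 (total reads) and 0.033 (quantile), and Ifngr2 from -0.0098 to 0.066, 0.052 and 0.056. With 1 library left out Ifnar2 ranged from -0.063 to 0.041 and Ifngr2 from -0.053 to 0.034, the highest without WT con replicate 2. With LPS, Ifnar2 moved from -0.15 to 0.050, 0.064 and 0.12 and Ifngr2 from -0.15 to 0.052, 0.065 and 0.0997 in these scalings. In the interaction Ifnar1 moved from -0.01 to 0.12, 0.15 and 0.18 under these scalings, to 0.0016 with a pseudocount of 5, and from -0.033 to 0.018 with 1 library left out, being positive without WT con replicate 1 or KO-labelled con replicate 1 (0.0015). Ifnar2 moved to 0.013 and 0.092, and Ifngr2 to 0.013 and 0.044, with total-read and quantile scaling. The cause was not tested.

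Libraries with the same number did not deviate together (correlations of -0.077 to 0.033), so the numbers were not taken as pairs. With a replicate block the receptor genes that passed numbered 4, 4, 0, 1 and 0 in the 5 comparisons, as without it. The LPS differences of the log2 chain ratios ran from -0.61 to -0.51 for the type I receptor and from -1.59 to -1.42 for the gamma receptor with 1 library left out. With 2 libraries per group and at most 3 Ifnb1 reads in a library, the depth limits Ifnb1 to presence or absence, and the p-values rest on a spread shared over groups.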
